A study of Mus musculus with 9 samples.

Results

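Blood and lymphatic vessels of mouse skin were followed here through 10 genes that endothelial cells are known for, Pecam1, Cdh5, Kdr, Flt1, Tek, Vwf, Sele, Lyve1, Prox1 and Flt4. They were chosen by name and looked up in the deposited table of 17943 genes, where each had 1 row. All 10 passed the minimum of 10 counts summed over the mice and were among the 16426 genes tested. The position beside each gene is its span in RefSeq build GRCm38.p6, the assembly also called mm10.

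RNA-Seq was performed on whole skin of 9 mice, 5 controls and 4 Supt6-KO mice. The paper describes the Supt6-KO skin as lesional and the control skin as matched to it. SPT6, the protein encoded by Supt6, is a histone chaperone that travels with RNA polymerase II during transcription elongation. Supt6-KO mice were K14-CreERT; Supt6 fl/fl animals given 5 daily intraperitoneal injections of tamoxifen at 50 mg/kg during the first telogen, and their skin was taken on day 10 after the last injection. Control mice were Supt6 fl/fl animals without Cre that received corn oil in place of tamoxifen, so the Cre transgene and tamoxifen cannot be told apart from the deletion. The sample labels call the controls wild type, call the Supt6-KO genotype a knockdown and name the ear as the tissue, whereas the study's methods describe floxed controls and dorsal skin. Which skin site is right was not tested with these data. An exact age was not given in the sources used here.

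The K14 promoter drives Cre in basal keratinocytes of the epidermis and not in endothelium, so the endothelial cells of these mice were not the cells targeted. Counts of Supt6 itself ran from 2068 to 3798 per control mouse and from 478 to 791 per Supt6-KO mouse. It was at 76.5 ± 17.2 CPM (counts per 1000000 counts; SD, n = 5) against 25.7 ± 3.31 CPM (SD, n = 4), with no overlap between the groups. Its log2 fold change was -1.57 (SE 0.18, adjusted p = 1.3e-05 by edgeR's quasi-likelihood test). By the same test it was at -2.26 (adjusted p = 6.4e-06) with plain library totals. After the correction for gene length described below it was at -0.72 (adjusted p = 0.00019).

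Vessels of the skin run in the dermis and in the fat below it. Blood endothelium is held together by the adhesion molecules PECAM1 and VE-cadherin and reads vascular endothelial growth factors (VEGF) and angiopoietins through receptor tyrosine kinases. Lymphatic endothelium needs the transcription factor PROX1 and the VEGF-C receptor VEGFR3 for its identity and growth. E-selectin is known as an adhesion molecule that activated endothelium of inflamed skin puts on its surface to slow passing leukocytes.

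The libraries held 29627341 to 30491197 estimated counts in controls and 30597189 to 30967107 in Supt6-KO mice. Trimmed mean of M-values (TMM) factors, which correct a library's total for its composition, were 1.20 to 1.31 in controls and 0.674 to 0.91 in Supt6-KO mice. Unless stated otherwise, CPM values are relative to totals multiplied by these factors. The scaling matters for every level below, because with plain library totals the median log2 fold change over all genes tested was -0.759, against -0.0724 with TMM.

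Among the 10 endothelial genes, 9 fell in Supt6-KO skin and none rose at an adjusted p under 0.05. No member rose at an unadjusted p under 0.05 in edgeR either, and DESeq2 also called 9 lower and 0 higher. The background for this count was high, since 36.8% of all genes tested were called lower and 34.1% higher. With library totals 9 members were again lower and 0 higher, beside 54.6% and 16.9% of all genes. A fall of at least 2-fold was called for 7 members, against 24.9% of all genes, and a rise of that size for none, against 20.9%. In 7 members the Supt6-KO mice all lay under the lowest control, a pattern that held for 31.8% of all genes. The median log2 fold change of the members was -1.22, beside -0.07 for all genes tested. Summed over the members, the controls had 120, 93.7, 69.2, 123 and 171 CPM and the Supt6-KO mice had 51.3, 47.5, 51.8 and 47.6 CPM, which was 42.9% of the control mean. Bulk RNA cannot tell fewer endothelial cells from less RNA of these genes per cell.

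**Figure D1:**
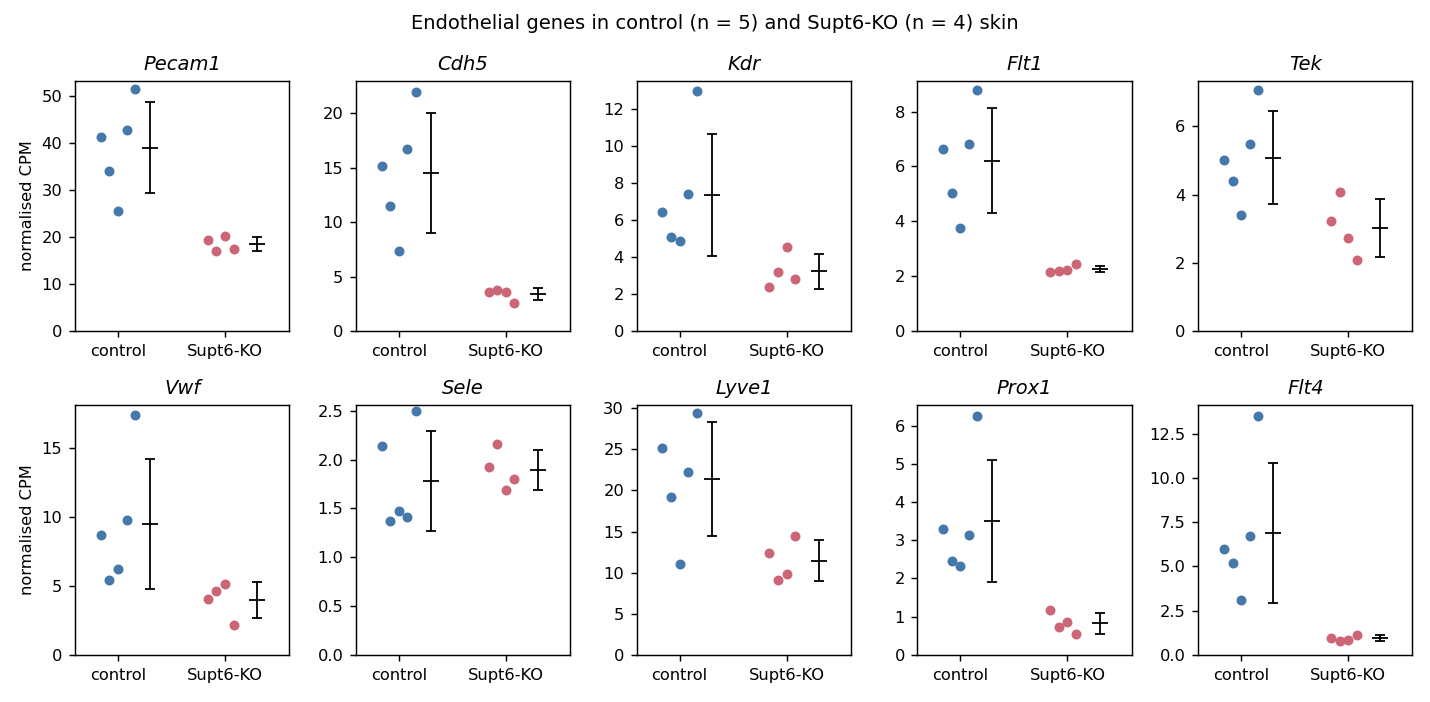
Level of each endothelial gene in normalised CPM (vertical axes, starting at 0, a scale for each gene) in 5 control mice and 4 Supt6-KO mice. Each point is 1 mouse and the bars are the mean and SD; the groups overlap for Sele, Tek and Lyve1, and control 5 is the highest control in all 10 genes.

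Pecam1 (chr11:106654213-106715281), which encodes the junctional adhesion molecule CD31, was at 41.4, 34.0, 25.6, 42.8 and 51.5 CPM in the controls and at 19.4, 17.0, 20.3 and 17.5 CPM in Supt6-KO skin. The Supt6-KO mice were close to each other and all below the lowest control. The log2 fold change was -1.08 (SE 0.18, adjusted p = 0.00028 by edgeR), and the Supt6-KO mean was 47.4% of the control mean.

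Cdh5 (chr8:104101613-104144504) encodes VE-cadherin, the cadherin of endothelial adherens junctions. It was at 15.2, 11.5, 7.34, 16.7 and 22 CPM in controls against 3.64, 3.74, 3.57 and 2.55 CPM in Supt6-KO mice. No Supt6-KO mouse reached the level of control 3, the lowest control. Its log2 fold change of -2.11 (SE 0.30, adjusted p = 6.4e-05 by edgeR) left 23.2% of the control mean.

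Among the VEGF receptors of blood vessels, Kdr (chr5:75932827-75979072) encodes VEGFR2, the main signalling receptor for VEGF-A. Kdr was at 6.47, 5.09, 4.90, 7.44 and 13 CPM in controls and at 2.38, 3.21, 4.57 and 2.84 CPM in Supt6-KO mice, with Supt6-KO 3 just below the lowest control. Its log2 fold change was -1.19 (SE 0.32, adjusted p = 0.0055 by edgeR).

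Flt1 (chr5:147561604-147726438) encodes VEGFR1, which binds VEGF-A tightly and limits how much of it reaches VEGFR2. It was at 6.63, 5.04, 3.76, 6.82 and 8.78 CPM in controls and at 2.17, 2.21, 2.24 and 2.44 CPM in Supt6-KO mice. The Supt6-KO mice were nearly equal in Flt1, and all were below the controls. This was a log2 fold change of -1.45 (SE 0.24, adjusted p = 0.00024 by edgeR).

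Tek (chr4:94739086-94874976) encodes TIE2, the receptor for angiopoietins, and changed least among the 9 genes that fell. It was at 5.03, 4.41, 3.40, 5.49 and 7.08 CPM in controls and at 3.22, 4.08, 2.74 and 2.08 CPM in Supt6-KO mice. The groups overlapped, since Supt6-KO 2 was above control 3. Its log2 fold change was -0.75 (SE 0.25, adjusted p = 0.02 by edgeR), and without Supt6-KO 3 the adjusted p was 0.055.

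Vwf (chr6:125552948-125686679) encodes von Willebrand factor, a clotting protein that endothelial cells and platelets store. It was at 8.69, 5.45, 6.23, 9.76 and 17.4 CPM in controls and at 4.05, 4.61, 5.17 and 2.16 CPM in Supt6-KO mice. Control 5 was far above the other controls, while Supt6-KO 3 stood just under control 2, so the groups did not overlap. Vwf had a log2 fold change of -1.26 (SE 0.36, adjusted p = 0.0085 by edgeR).

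Sele (chr1:164039614-164058487), which encodes E-selectin, was the member that did not pass the test. It was at 2.14, 1.37, 1.47, 1.41 and 2.50 CPM in controls and at 1.92, 2.16, 1.69 and 1.80 CPM in Supt6-KO mice. The Supt6-KO mice lay inside the range of the controls. Its fold change was 0.09 on the log2 scale (SE 0.24, adjusted p = 0.75 by edgeR), and with library totals it turned to -0.62 (adjusted p = 0.05), which did not pass either. Its counts were low, at 80, 50, 53, 52 and 98 in controls and 46, 45, 37 and 50 in Supt6-KO mice.

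The lymphatic members began with Lyve1 (chr7:110850607-110862953), which encodes a hyaluronan receptor of lymphatic endothelium that some tissue macrophages also carry. Lyve1 was at 25.2, 19.2, 11, 22.3 and 29.4 CPM in controls and at 12.4, 9.07, 9.83 and 14.5 CPM in Supt6-KO mice. Control 3 lay among the Supt6-KO mice, and the other controls were above all of them. The log2 fold change was -0.90 (SE 0.26, adjusted p = 0.0083 by edgeR), which left 53.4% of the control mean.

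Prox1 (chr1:190118035-190170827), the transcription factor that sets lymphatic identity, was at 3.29, 2.46, 2.33, 3.14 and 6.26 CPM in controls and at 1.17, 0.72, 0.869 and 0.539 CPM in Supt6-KO mice. Its Supt6-KO libraries held 28, 15, 19 and 15 counts, all above the floor of 3 counts. The log2 fold change was -2.08 (SE 0.36, adjusted p = 0.00028 by edgeR), with no overlap between the groups.

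Flt4 (chr11:49609679-49652739), which encodes VEGFR3, the receptor for VEGF-C and VEGF-D, had the lowest fold change of the 10 members. It was at 5.99, 5.17, 3.10, 6.71 and 13.5 CPM in controls and at 0.961, 0.768, 0.869 and 1.15 CPM in Supt6-KO mice. All Supt6-KO mice were below all controls, with 23, 16, 19 and 32 counts against 224, 189, 112, 248 and 529. The log2 fold change was -2.87 (SE 0.40, adjusted p = 6.5e-05 by edgeR), and 13.6% of the control mean remained.

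Promoters of these ends of the range, Flt4 with the largest fall and Sele with no call, are shown to set their base composition and motifs side by side. RefSeq promoters of build GRCm38.p6, from 250 bases before to 50 bases after an annotated start, were on hand for 6 of the 10 members. The Flt4 promoter lies at chr11:49609429-49609728 on the forward strand and the Sele promoter at chr1:164047984-164048283 on the forward strand. The annotated start used for Sele lies inside the gene span given above, whereas that of Flt4 is at the start of its span. Capitals mark the matches found with the motifs named after the sequences, and Flt4 has none.
Flt4: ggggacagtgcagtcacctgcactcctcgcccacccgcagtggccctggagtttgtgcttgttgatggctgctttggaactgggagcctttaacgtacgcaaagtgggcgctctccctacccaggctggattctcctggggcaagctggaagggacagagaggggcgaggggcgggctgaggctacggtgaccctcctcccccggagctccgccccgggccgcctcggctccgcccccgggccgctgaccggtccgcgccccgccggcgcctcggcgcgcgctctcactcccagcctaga
Sele: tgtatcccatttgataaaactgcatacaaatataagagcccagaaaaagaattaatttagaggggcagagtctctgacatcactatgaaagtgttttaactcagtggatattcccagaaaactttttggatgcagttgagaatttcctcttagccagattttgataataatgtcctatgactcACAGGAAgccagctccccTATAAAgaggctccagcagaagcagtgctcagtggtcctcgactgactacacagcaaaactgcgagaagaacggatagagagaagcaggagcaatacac
G and C made up 70.3% of the bases for Flt4 and 41.7% for Sele, beside a median of 52.7% over 32851 promoters. Motifs were searched on both strands, and no match overlapped another in these promoters. A motif for transcription factors of the NF-kB family was in 5.56% of all promoters. It was in none of those on hand for the members, that of Sele included. For ETS factors the letters ACAGGAA occurred once in the Sele promoter, 67 bases before the start, and in 8.67% of all promoters. The TATA box letters TATAAA occurred there as well, 49 bases before the start, and in 13.62% of all promoters. A second ETS form, CCGGAAG, is in 8.86% of all promoters and in none of those on hand for the members. For SOX factors the letters AACAAT are in 10.72% of all promoters and, on the reverse strand, in that of Tek. The Flt1 promoter and 1 of 2 Prox1 promoters also held the TATA box letters. Such matches describe letters, not sites in use.

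Levels between genes were compared per length, with the TPM values (transcripts per 1000000 transcripts) that were deposited for the 5 controls and for Supt6-KO 4. In controls Pecam1 was highest, at 21.5 ± 7.88 TPM (SD, n = 5), followed by Lyve1 at 15.3 ± 6.5 TPM (SD, n = 5) and Cdh5 at 6.52 ± 3.25 TPM (SD, n = 5). Kdr, Flt4, Tek, Vwf, Flt1 and Sele followed, with means from 2.19 TPM down to 1.11 TPM, and Prox1 was lowest at 0.762 ± 0.461 TPM (SD, n = 5). No neighbours in this order differed beyond their SDs. Within a mouse, Pecam1 was above Lyve1, Lyve1 above Cdh5 and Cdh5 above Kdr in 5 of 5 controls, whereas Kdr was above Flt4 in 3 and Flt4 above Tek in 1.

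The members varied together from mouse to mouse. Control 5 was the highest control in all 10 genes, and control 3 the lowest in 8 and control 2 in the other 2. In the Supt6-KO group no mouse was highest or lowest throughout. The highest value was in Supt6-KO 2, 3 and 4 for 3 members each and in Supt6-KO 1 for 1. The lowest was in Supt6-KO 4 for 4 members, in Supt6-KO 2 for 3, in Supt6-KO 1 for 2 and in Supt6-KO 3 for 1. Supt6-KO 4 lay apart from its group in Cdh5, at 2.55 CPM against a median of 3.6 CPM. Fold changes without control 5 were smaller, at -2.47 for Flt4, -1.91 for Cdh5, -1.77 for Prox1, -0.92 for Vwf and -0.60 for Tek on the log2 scale, and 9 members were still called lower by edgeR.

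The genes that varied most like Pecam1, Cdh5, Kdr, Flt1 and Tek within the groups were sought among 9951 genes with at least 5 CPM in each group. Likeness was Pearson's r, over the 9 mice, between a gene's deviation from its group mean and the mean deviation of these 5 genes, and it is a description in which all genes share the same libraries. The mean scaled deviation of the 5 genes was largest in control 3, at -1.70, and in control 5, at 1.62, and lay between -0.49 and 0.30 in the Supt6-KO mice, so the r values rest mostly on these 2 controls. Sparcl1, a matricellular protein gene, had the highest r at 0.962, followed by Adgrf5, an adhesion receptor gene, at 0.958 and the complement gene C3 at 0.953. Itm2c and the protease inhibitor gene Timp2 both had 0.946, the transcription factor gene Sox9 had 0.945, the basement membrane gene Nid1 and Cpq had 0.944, and the matrix gene Fbln2 and Chsy1, of chondroitin synthesis, had 0.939. Of these 10 genes, 8 fell in Supt6-KO skin by edgeR, beside 36.8% of all genes tested. The share among the 9951 genes compared was not computed. Sparcl1 fell by 2.85 on the log2 scale (adjusted p = 2.7e-06 by edgeR), while Fbln2 was at 0.02 (adjusted p = 0.96) and Chsy1 at 0.22 (adjusted p = 0.22). The members themselves had r from 0.665 for Sele to 0.965 for Cdh5 with these core genes, each core gene being left out of its own comparison.

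To compare members without any scaling between libraries, each was divided by Cdh5 counts of the same mouse. Sele had 14.1, 11.9, 20.0, 8.44 and 11.3 counts per 100 Cdh5 counts in controls and 52.9, 57.7, 47.4 and 70.4 in Supt6-KO mice. That was a 4.47-fold higher ratio with no overlap, at an exact permutation p of 0.016 (two-sided), which is the lowest attainable with 5 and 4 mice, and 0.029 after adjustment over the 9 ratios. The ratio was also higher for Tek at 2.43-fold, Lyve1 at 2.25-fold, Pecam1 at 1.98-fold and Flt1 at 1.55-fold, each with an adjusted exact p of 0.029, and for Kdr at 1.87-fold and Vwf at 1.78-fold, each with 0.041. These 7 ratios rose with Cdh5 as the divisor, which itself was among the members that fell most. Cdh5 was at -2.11 on the log2 scale (adjusted p = 6.4e-05 by edgeR) and Sele at 0.09 (adjusted p = 0.75). The size of the Sele ratio thus belongs to this divisor.

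Prox1 kept close to Cdh5, with 21.7, 21.4, 31.7, 18.8 and 28.4 counts per 100 Cdh5 counts in controls and 32.2, 19.2, 24.4 and 21.1 in Supt6-KO mice. The fold was 1.01 (adjusted exact p = 0.9), and the groups overlapped throughout. Flt4 had a ratio of 0.627-fold, from 45.6 ± 8.94 (SD, n = 5) to 29.1 ± 10.9 (SD, n = 4) counts per 100 Cdh5 counts, which did not pass (adjusted exact p = 0.089). With the summed counts of 22 pan-endothelial genes as the divisor, 1 of the 9 ratios was higher, that of Sele, and 5 were lower, and the other ratios changed direction except that of Flt4, which was lower with both divisors. With Cdh5 as the divisor, leaving out 1 mouse gave 7 higher ratios without control 3, 6 without Supt6-KO 4 and 0 without any other mouse. The smallest exact p allowed with 1 mouse left out is 0.029 or 0.036 before adjustment. The log2 difference to Cdh5 then stayed between 2.01 and 2.33 for Sele and between 0.47 and 0.70 for Flt1. With the summed pan-endothelial counts as the divisor, Flt1 was at -1.0.

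**Figure D2:**
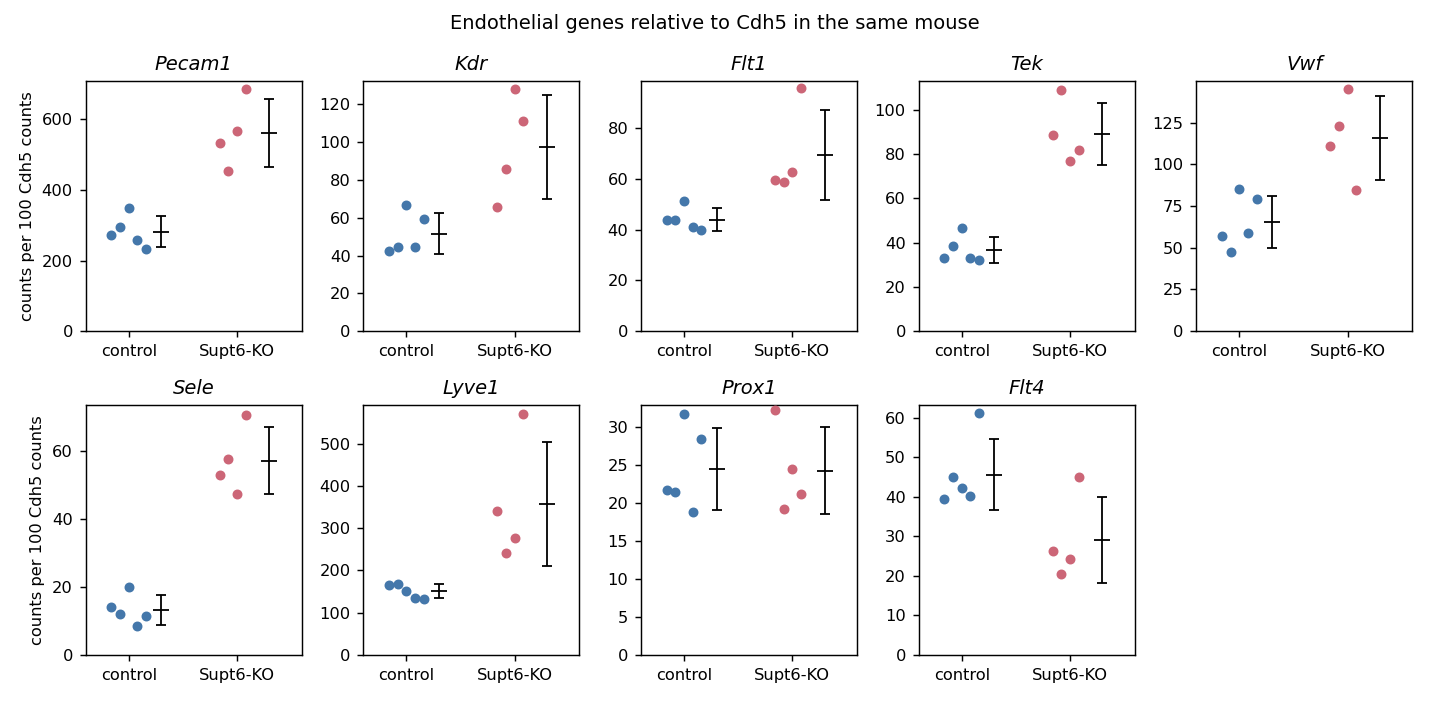
Counts of 9 endothelial genes per 100 Cdh5 counts of the same mouse (vertical axes, starting at 0) in 5 control and 4 Supt6-KO mice, with mean and SD. Sele is between 8.44 and 20.0 in controls and between 47.4 and 70.4 in Supt6-KO mice, and Prox1 overlaps throughout.

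Gene length moved with the fold changes of the whole table. The slope over 13203 genes was -1.88 log2 units for each 10-fold increase in length, so that long genes were lower in Supt6-KO skin, and the median member was 1.98 times as long as the median gene tested. After the trend was removed, 6 members were still called lower, and none higher, against 35.9% and 36.6% of 14268 genes. They were Flt4 at -2.05 (adjusted p = 0.00029), Cdh5 at -1.69 (0.00027), Prox1 at -1.05 (0.0072), Lyve1 at -0.92 (0.0074), Pecam1 at -0.85 (0.0011) and Flt1 at -0.54 (0.022), with adjusted p-values by edgeR. Kdr at -0.35 (adjusted p = 0.27), Tek at -0.16 (0.56) and Vwf at -0.11 (0.73) no longer passed. With annotated GENCODE lengths in place of lengths from the deposited values, Vwf stayed called at -1.20 (adjusted p = 0.013), and 7 members were lower and 0 higher, beside 33.8% and 35.2% of all genes with such a length. Lyve1 is a gene of about median length, at 0.915 times the median, and was at -0.63 (adjusted p = 0.034) with GENCODE lengths.

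**Figure D3:**
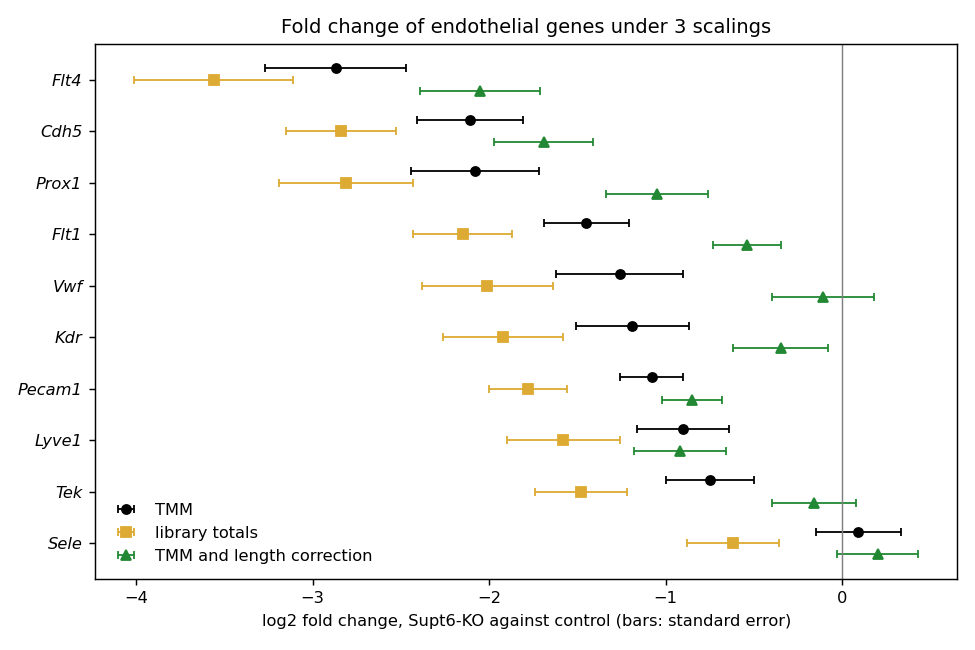
Log2 fold change of each endothelial gene (horizontal axis; bars are the SE) with TMM, with library totals and with TMM plus a correction for gene length. Library totals place all 10 genes below 0, and the length correction brings Vwf, Tek and Kdr close to 0 while Flt4 and Cdh5 stay below -1.5.

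The ligands and partners of these receptors did not move one way. Of 12 VEGF and angiopoietin genes, 8 fell, 2 rose and 2 did not pass, with a median log2 fold change of -0.83. The background for this list and those below was again 36.8% of all genes called lower and 34.1% higher by edgeR. Vegfa, the main ligand of VEGFR2 and a product of keratinocytes among other cells, was at 14.9, 15.9, 18.5, 14.2 and 12.5 CPM in controls and at 33.1, 28.9, 45.1 and 54.0 CPM in Supt6-KO mice. Every Supt6-KO mouse was above every control, with a log2 fold change of 1.41 (SE 0.19, adjusted p = 4.7e-05 by edgeR), 0.75 with library totals and 1.61 after the length correction. Vegfa was thus higher where the receptor genes Kdr, Flt1 and Flt4 were lower.

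Among the ligands of VEGFR3, Vegfc fell by 0.82 on the log2 scale (adjusted p = 0.0087 by edgeR), while Vegfd rose by 0.48 (adjusted p = 0.022) and was at -0.22 with library totals. Vegfb, a ligand of VEGFR1, fell by 0.84 (adjusted p = 0.00042), and Pgf, another, was at 0.39 (adjusted p = 0.15). Of the TIE2 ligands, Angpt1, which activates the receptor, fell by 0.77 (adjusted p = 0.021), Angpt4 fell by 1.96 (adjusted p = 4.1e-05), and Angpt2, which can oppose Angpt1, was at -0.31 (adjusted p = 0.16), and at -1.02 (adjusted p = 0.0012) with library totals. All 4 partners fell, namely Tie1, the orphan relative of TIE2, by 1.46, the VEGF coreceptors Nrp1 and Nrp2 by 1.29 and 1.04, and Ptprb, the phosphatase that acts on TIE2, by 1.90, with adjusted p from 5.3e-05 to 0.0082 by edgeR. After the length correction Nrp1, Nrp2, Angpt1 and Vegfd no longer passed, with Vegfd at 0.10 (adjusted p = 0.6). Ptprb still passed, at -0.61 (adjusted p = 0.0081). With GENCODE lengths Nrp2 (adjusted p = 0.71) and Angpt1 (adjusted p = 0.62) were not called either, whereas Nrp1 and Vegfd kept their calls. Vegfd also lost its call without Supt6-KO 1 (adjusted p = 0.06) or Supt6-KO 2 (adjusted p = 0.054), and Angpt1 without Supt6-KO 1 (adjusted p = 0.058) or Supt6-KO 3 (adjusted p = 0.061).

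Other endothelial genes moved both ways. Of 22 pan-endothelial genes 14 fell, 4 rose and 4 did not pass (median log2 fold change -0.60), and their summed level in Supt6-KO skin was 75.2% of the control mean. Erg, an ETS transcription factor of endothelium, was at 12.7 ± 4.8 CPM (SD, n = 5) against 2.49 ± 0.88 CPM (SD, n = 4) and fell by 2.34 on the log2 scale (adjusted p = 4.6e-05 by edgeR). Sox7, a SOX transcription factor, went the other way, at 6.40 ± 0.947 CPM (SD, n = 5) against 17.0 ± 2.61 CPM (SD, n = 4), with a log2 fold change of 1.41 (adjusted p = 1.5e-05). Egfl7, a secreted endothelial protein gene, rose by 0.95 (adjusted p = 0.0004) but was at 0.27 (adjusted p = 0.16) after the length correction and at 0.24 (adjusted p = 0.23) with library totals. Plvap, of fenestrated capillaries, fell by 1.00 (adjusted p = 0.002). The tight junction gene Cldn5 fell by 0.60 (adjusted p = 0.029) and Cd34, which held the largest share of the list's CPM, by 0.35 (adjusted p = 0.047). Cldn5 lost its call without control 2, 4 or 5 or Supt6-KO 3 or 4 (adjusted p = 0.053 to 0.063), and Cd34 without any one of the mice except control 3 or 4 (adjusted p = 0.056 to 0.11) and in DESeq2 (adjusted p = 0.092).

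Genes that mark kinds of blood vessel fell in part. Of 14 arterial, venous and capillary genes, 8 fell, 2 rose and 4 did not pass (median -0.84), beside 36.8% of all genes lower and 34.1% higher. The arterial ligand Efnb2 fell by 0.86 (adjusted p = 0.00022 by edgeR) and its venous receptor Ephb4 by 0.92 (adjusted p = 1.9e-05), both with no overlap between the groups. Their control means were 96.5 and 57.6 CPM, and which cells of the whole skin made this RNA was not tested. Apln, a peptide of sprouting vessels, fell by 1.61 (adjusted p = 0.00054), and Car4, a capillary carbonic anhydrase, rose by 1.3 (adjusted p = 0.0095) at a level under 1 CPM in both groups. The Car4 call was lost with library totals at 0.61 (adjusted p = 0.18) and with the length correction at 0.59 (adjusted p = 0.19), and the length correction also took the call from Efnb2 at -0.27 (adjusted p = 0.068). Gja4, a gap junction gene of arteries, was at -0.15 (adjusted p = 0.53), but called lower at -0.87 (adjusted p = 0.0027) with library totals and at -0.58 (adjusted p = 0.031) after the length correction, and Rgcc at -0.48 (adjusted p = 0.2), but Rgcc was called lower at -1.65 (adjusted p = 0.00026) after the length correction and at -1.23 (adjusted p = 0.002) with library totals.

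Among genes of activated endothelium, to which Sele belongs by function, 1 fell, 2 rose and 2 did not pass, and Madcam1 had too few counts to be tested. Over all genes 36.8% fell and 34.1% rose, so these counts do not set the list apart. Icam1 and Vcam1, adhesion molecules for leukocytes, rose by 0.65 (adjusted p = 0.0031 by edgeR) and 0.73 (adjusted p = 0.015), and both are also made by other cells. Selp, which encodes P-selectin, was at -0.32 (adjusted p = 0.2), and Ackr1, a chemokine-binding gene of venules, fell by 0.95 (adjusted p = 0.027). Lrg1, a secreted protein gene, was at -0.44 (adjusted p = 0.062). With library totals Icam1 was at -0.03 (adjusted p = 0.9) and Vcam1 at 0.01 (adjusted p = 0.96), while Selp was called lower at -1.03 (adjusted p = 0.0018). Vcam1 also lost its call without Supt6-KO 3 (adjusted p = 0.056), and Ackr1 without control 5, Supt6-KO 2 or Supt6-KO 3 (adjusted p = 0.065 to 0.075). Lrg1 was called lower at -1.11 after the length correction (adjusted p = 0.0011) and with library totals (adjusted p = 0.0017), and also with GENCODE lengths, upper-quartile factors, at least 10 counts in every mouse, and without control 3 or Supt6-KO 4 (adjusted p = 0.0055 to 0.035).

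Of 8 further lymphatic genes, 5 fell, 1 rose and 2 did not pass (median -1.02). Foxc2, a transcription factor gene of lymphatic valves, fell by 2.49 (adjusted p = 4.9e-05 by edgeR), the integrin gene Itga9 by 1.89 (adjusted p = 0.0002), Reln by 1.18 (adjusted p = 0.008) and the transcription factor gene Gata2 by 0.86 (adjusted p = 0.0047), each with no overlap between the groups. After the length correction Reln was at 0.12 (adjusted p = 0.66), and the other 3 still passed. Stab2, a scavenger receptor, had 2, 7, 7, 1 and 3 counts in controls and 0 in every Supt6-KO library, too near the floor for a fold. Pdpn, which encodes podoplanin and is also made by keratinocytes and fibroblasts, rose by 0.74 (adjusted p = 0.0043 by edgeR), but was at 0.06 (adjusted p = 0.83) with library totals and at 0.41 (adjusted p = 0.08) after the length correction. Ccl21a, a chemokine of lymphatic vessels, was at 0.09 (adjusted p = 0.67), but at -1.09 (adjusted p = 0.0017) after the length correction, and copies of this gene family share sequence, so its counts are uncertain. Mmrn1, an extracellular protein gene of lymphatic vessels, was at -0.55 (adjusted p = 0.085), and at -1.28 (adjusted p = 0.0022) with library totals. It was also called lower without control 3, at -0.67 (adjusted p = 0.039).

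The vascular genes were also grouped by length. Over the members and the 5 vascular lists, 70 genes had a length, and of the 43 at least as long as the median gene 74.4% fell and 6.98% rose, whereas of the 27 shorter genes 44.4% fell and 29.6% rose. Over all genes 54.0% of the longer ones fell and 21.1% rose, whereas 24.5% of the shorter ones fell and 51.3% rose.

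Markers of other skin cells moved as well, and their part in the results for endothelial genes was not tested. Where a gene is said to lead a list, it had the highest mean CPM, which is not per length. Mural cells, the pericytes and smooth muscle of the vessel wall, had 7 of 10 genes lower and 1 higher, with summed levels of 407, 394, 388, 404 and 477 CPM in controls and 178, 230, 221 and 157 CPM in Supt6-KO mice. Des, which muscle also makes, led them in controls and fell by 1.79 on the log2 scale (adjusted p = 1.6e-06 by edgeR). Pdgfrb, the receptor of pericytes, fell by 2.07 (adjusted p = 0.00013), Abcc9 by 2.31 (adjusted p = 1e-05) and Notch3 by 1.77 (adjusted p = 1.2e-05). After the length correction they were at -1.31, -1.33 and -0.73 (adjusted p from 0.00011 to 0.0012). The median of the list then moved from -1.69 to -0.70. Tagln, a smooth muscle gene, rose by 0.65 (adjusted p = 0.015). Tagln was not called with the length correction at 0.15 (adjusted p = 0.51), nor without Supt6-KO 2 (adjusted p = 0.063) or Supt6-KO 3 (adjusted p = 0.058). Rgs5 was at -0.15 (adjusted p = 0.47), and at -0.89 (adjusted p = 0.00046) with library totals.

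Fibroblast genes fell in 4 of 6 cases, with a summed level at 32.7% of the control mean, led by Col1a2 in controls and by Dcn in Supt6-KO mice. Control 5 was also highest there, at 7100 CPM against 3080, 2720, 1940 and 3910 CPM in the other controls, and the Supt6-KO mice had 1100, 1200, 1530 and 1070 CPM. All 5 skeletal muscle genes, led by Acta1, fell to a summed 20.0% of control, and all 5 Schwann cell genes to 24.0%. Of 5 adipocyte genes 4 fell, to between 12.1% and 44.0% of their control means, while Cfd, which led them, was at -0.13 (adjusted p = 0.53 by edgeR), and the 5 together were at 52.0%. Cfd was called lower at -1.24 (adjusted p = 1.4e-05) after the length correction and at -0.83 (adjusted p = 0.00086) with library totals. Keratinocyte genes, led by Krt10, were at a summed 147% of the control mean, with 1 of 5 higher, Krt1 by 3.65 on the log2 scale (adjusted p = 5.3e-07 by edgeR), and 2 lower. The summed mean went from 23700 to 34900 CPM, and that of Krt1 alone from 833 to 10400 CPM. The 2 lower genes were Krt5 at -0.86 (adjusted p = 0.0048) and Trp63 at -1.21 (adjusted p = 1.5e-05). Krt10 was at 0.19 (adjusted p = 0.56). It was called higher at 0.42 (adjusted p = 0.049) without Supt6-KO 4 and lower at -0.55 (adjusted p = 0.036) with library totals.

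Leukocyte genes rose in 5 of 6 cases, with no fall, to summed levels of 2570, 2840, 3630 and 1380 CPM against 105 to 154 CPM in controls. S100a8, also made by keratinocytes, was at 1920 ± 727 CPM (SD, n = 4) in Supt6-KO mice and 8.20 ± 4.76 CPM (SD, n = 5) in controls, where Lyz2, at 92.9 CPM, led the list. Ptprc, the pan-leukocyte gene for CD45, was at 0.24 (adjusted p = 0.21 by edgeR), but was called higher at 0.93 (adjusted p = 0.00069) after the length correction and at 0.37 (adjusted p = 0.027) without Supt6-KO 4, and lower at -0.49 (adjusted p = 0.013) with library totals. Ly6g, which marks neutrophils, was near the floor, with 0, 1, 0, 0 and 0 counts in controls and 4, 0, 15 and 1 in Supt6-KO mice. Platelets also store von Willebrand factor, and of their 4 tested genes 3 rose and 1 fell. They were led by Pf4, which rose by 1.65 (adjusted p = 9.6e-05 by edgeR) where Vwf fell. Pf4 held 76.5% of the summed CPM of this list, and which cells made it was not tested. The platelet gene that fell was Gp1ba, at -1.08 (adjusted p = 0.0015 by edgeR), with no overlap between the groups. After the length correction Pf4 was at 0.10 (adjusted p = 0.82), and 1 of the 4 platelet genes was higher and 0 lower. With GENCODE lengths Pf4 kept its call. Ppbp, a platelet chemokine gene, was called at 1.8 (adjusted p = 0.024) mainly through Supt6-KO 4, with 33 counts there and 4, 6 and 6 in the others, and was at 0.78 (adjusted p = 0.22) without it. Ppbp also lost its call without control 1 (adjusted p = 0.05) or control 4 (adjusted p = 0.053), and with library totals Ppbp (adjusted p = 0.14) and Itga2b, a platelet integrin gene (adjusted p = 0.08), did not pass. Gp9, of the platelet receptor for von Willebrand factor, had 0 to 2 counts in every library and was not tested. Genes of the tissue macrophages that can carry LYVE1 had 2 of 5 higher and none lower, at summed levels of 96.5, 78.4, 68.5, 93.5 and 192 CPM in controls and 151, 184, 175 and 207 CPM in Supt6-KO mice. Mrc1, which encodes the mannose receptor, rose by 1.89 (adjusted p = 0.0002), whereas F13a1, which led that list in controls, was at 0.21 (adjusted p = 0.48), Cd163 was at -0.02 (adjusted p = 0.97), and Lyve1 itself was lower. F13a1 was called higher at 0.60 (adjusted p = 0.041 by edgeR) after the length correction and at 0.51 (adjusted p = 0.013) without control 5.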

How the data were processed

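Whole skin of 5 control and 4 Supt6-KO mice was sequenced on a DNBSEQ instrument. The authors aligned reads to mm10 and deposited estimated counts per gene (RSEM 1.3.1, Bowtie2 2.3.4.3), with TPM for 6 of the 9 mice. The labels' processing notes also name HISAT and DESeq2 1.4.5. The annotation release was not given in the sources used here, and the labels and the paper name different RNA extraction reagents. Of the estimated counts, 9% were not whole, and all were rounded.

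Gene IDs were matched to RefSeq GRCm38.p6 symbols, 17519 by NCBI ID, 330 by symbol and 61 by synonym, with 33 unmatched. A gene needed at least 10 counts summed over the mice. edgeR 4.0.16 (R 4.3.3) compared the groups by its quasi-likelihood test with TMM and Benjamini-Hochberg adjustment over 16426 genes, with calls at an adjusted p under 0.05. Standard errors are the log2 fold change divided by the square root of the F statistic. CPM per mouse used TMM library sizes. Relative lengths came from counts divided by TPM (14268 genes). For the correction, lowess in each mouse of log2 CPM deviations from the gene mean on log10 length gave an offset for the edgeR fit. Ratios to Cdh5 used a pseudocount of 0.5 and an exact two-sided permutation test (scipy 1.17.1). The floor of 3 counts covers counting error only, whereas SDs and standard errors also hold the spread between mice.

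The 10 members and the 14 lists were chosen with earlier results of these data known. The text names Supt6, the members, all VEGF and angiopoietin genes, of each other list the 3 most abundant genes, its first gene and the largest called rise and fall, and the 10 genes most like the members. Not every gene so chosen is printed, and Gp9, Ly6g, Madcam1, Foxc2, Itga9, Reln, Gata2 and Krt5 were named after their values were seen. The motif TATAAA was also added then. Alternatives were each mouse left out, 2 other filters, library totals, DESeq2 1.42.0, a replicate block, upper-quartile factors, the length correction with both length measures, and a fit without the 50 most abundant genes. The tests were tried on simulated counts with known changes. Replicate numbers were not treated as pairs. Single-cell, ChIP and wound data were not analysed here.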

Additional observations from a re-analysis of the deposited data

Results flagged for a closer look

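In 7 of 68 sets of mice examined, 1 mouse lay far from the others of its group by Dixon's test, where chance alone would give about 3.4, and 5 of the 7 were control 5. Prox1 was at 6.26 CPM in control 5, against a control median of 3.14 CPM. Flt4 had 61.2 counts per 100 Cdh5 counts in control 5, against a median of 42.3. The summed lymphatic genes were at 184 CPM in control 5 (median 106), the summed mural cell genes at 477 CPM (median 404) and the summed LYVE1-type tissue macrophage genes at 192 CPM (median 93.5). In Supt6-KO 4, Cdh5 was at 2.55 CPM against a group median of 3.6 CPM, and Flt1 had 95.8 counts per 100 Cdh5 counts against 61.3. Without control 5, edgeR still called 9 members lower.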

How the results depend on the processing

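All members that fell kept their direction under every alternative run, and 8 to 9 of them were called with 1 mouse left out. Fold changes over all alternatives ranged from -3.56 to -1.92 for Flt4, -2.84 to -1.69 for Cdh5, -2.81 to -1.05 for Prox1, -2.15 to -0.50 for Flt1, -2.01 to -0.11 for Vwf, -1.92 to -0.27 for Kdr, -1.78 to -0.73 for Pecam1, -1.58 to -0.63 for Lyve1 and -1.48 to -0.06 for Tek on the log2 scale. Sele ranged from -0.62 with library totals to 0.38. Tek was at -0.61 (adjusted p = 0.059 by edgeR) with the replicate block, which left 8 members called. That fit also leaves out control 5, which has no partner, and without control 5 alone Tek was at -0.60 (adjusted p = 0.045). In the block fit Vegfd (adjusted p = 0.063), Cldn5 (0.077), Cd34 (0.08) and Tagln (0.059) were not called, and without control 5 alone Cldn5 (0.063) and Cd34 (0.1) were not called either. Mice with the same number deviated together only weakly (mean r 0.137 over 4 pairs, from 0.0153 to 0.236). Those with other numbers had a mean r of -0.0251 over 12 pairs, from -0.245 to 0.268. No pairing by number is given in the sources used here.

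Library totals gave 2771 genes higher in place of 5608, and with at least 2-fold 1470 higher in place of 3427 and 6802 lower in place of 4088. Higher genes then made up 23.6% of the calls, against 48.1%. In the 5 vascular lists 2 genes were then higher in place of 11, and in the 9 other lists 7 in place of 12. The length correction left 6 vascular genes higher, and 7 with GENCODE lengths, an alternative added after seeing the data. Vegfd (-0.22), Pgf (-0.31), Icam1 (-0.03), Ccl21a (-0.61), Tagln (-0.09), F13a1 (-0.49), Ptprc (-0.49) and Krt10 (-0.55) turned negative with library totals. The length correction turned Pgf to -0.18, Ccl21a to -1.09, Mmrn1 to 0.03, Rgs5 to 0.29, Cd163 to 0.52 and Krt10 to -0.01, and GENCODE lengths turned Angpt2 to 0.14, Selp to 0.10, Ccl21a to -0.45, Mmrn1 to 0.14, Cd163 to 0.66 and Krt10 to -0.20. Cd163, near no change, was at 0.05 with DESeq2 and 0.52 with the block. With 1 mouse left out, Cd163 ranged from -0.25 to 0.49 and Ccl21a from -0.03 to 0.24. GENCODE lengths also left Cd34 at -0.20 (adjusted p = 0.23), Car4 at 0.78 (0.084), Pdpn at 0.34 (0.16) and Rgcc at -1.03 (0.009). The causes were not tested.

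With 1 mouse left out, 5669 to 6392 genes were lower and 5305 to 5729 higher, and with at least 2-fold 3845 to 4204 and 3248 to 3476. With the summed pan-endothelial counts in place of Cdh5, 1 ratio was higher and 5 lower, and the log2 differences turned to -0.65 for Pecam1, -0.74 for Kdr, -1.0 for Flt1, -0.35 for Tek, -0.81 for Vwf, -0.47 for Lyve1 and -1.62 for Prox1, with Flt4 at -2.31 (adjusted exact p = 0.036). With 1 mouse left out, 0 to 7 ratios were higher and 0 to 1 lower, Prox1 ranged from -0.13 to 0.12, and Flt4 was at -0.90 (adjusted exact p = 0.046) without Supt6-KO 4.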
